A study of Mus musculus with 6 samples.

Results

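Rab GTPases are the small GTP-binding proteins that mark and move the membrane compartments of a cell. The Rab genes described here were the rows of the deposited gene count table whose symbol is Rab followed by a number and at most a letter and a digit. This rule, which uses no measured value, found 47 genes among the 11881 in the table, and 42 of them had enough counts to be tested. The cells were microglia, the resident macrophages of the brain, sorted by CD11b and low CD45 from the hippocampus of male mice at postnatal days 17 to 21. There were 3 libraries labelled WT and 3 labelled Mll5+/-, heterozygous for Mll5, now named Kmt2e, which encodes a chromatin-associated protein with a SET domain. The labels give each library its own number, which was taken as 1 mouse, and name neither strain nor litter nor any treatment. The allele is not described as limited to microglia. RNA was amplified by the SMART-seq method, and values are CPM, counts brought to a common library size with TMM scaling.

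A Rab protein works as a switch. Exchange factors (GEFs) load it with GTP at one membrane, the GTP-bound form recruits effectors that tether, move or fuse vesicles, and GTPase-activating proteins (GAPs) switch it off. Escort proteins present new Rab proteins for prenylation, and GDP dissociation inhibitors carry the inactive form through the cytosol. In phagocytes such as microglia, a newly formed phagosome acquires early endosomal Rab proteins and exchanges them for late endosomal ones before it fuses with lysosomes, while recycling Rab proteins return membrane and receptors to the surface.

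The 6 libraries held 21075570 to 29730400 counts, so that 3 counts, the upper limit that a count of 0 allows, correspond to 0.104 to 0.142 CPM. This limit covers counting error only, because reads of amplified cDNA without molecular identifiers are not independent molecules. All 10 microglial markers examined were listed, with summed levels of 7528 to 7969 CPM in WT-labelled libraries and 6690 to 7531 CPM in the Mll5+/- ones. Of 10 neuronal markers 7 were not listed, Syt1 and Rbfox3 among them, and the other 3 summed to at most 35.8 CPM in any library. The 3 of 8 listed endothelial and mural markers summed to at most 21.2 CPM. The 7 of 10 listed astrocyte markers summed to 388 to 569 CPM (WT) and 267 to 553 CPM (Mll5+/-). The 6 of 8 listed monocyte and neutrophil markers summed to 196 to 258 CPM (WT) and 223 to 278 CPM (Mll5+/-). Border macrophage and oligodendrocyte markers are given below. Kmt2e itself had 479, 378 and 687 CPM in WT-labelled libraries and 648, 298 and 513 CPM in the Mll5+/- ones. The groups overlapped, the log2 difference was -0.08 (SE 0.314) with an edgeR p of 0.799, and its 95% interval ran from -0.79 to 0.63. The interval did not reach the drop that losing the reads of a single copy would give, if both copies contributed equally. Whether this allele lowers the counted Kmt2e reads was not tested, so these counts gave no check of the genotype labels. WT and Mll5+/- mean the labelled genotype throughout.

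A few members made up most Rab counts in these microglia. Rab31, which carries cargo between the trans-Golgi network and early endosomes, had 1036, 904 and 1342 CPM in WT-labelled libraries and 913, 1142 and 930.5 CPM in the Mll5+/- ones. Rab14, which acts between the Golgi, recycling endosomes and phagosomes, had 848, 500.2 and 786 CPM in WT-labelled libraries and 807, 657 and 905 CPM in the Mll5+/- ones. Rab1a, which serves transport from the endoplasmic reticulum (ER) to the Golgi, had 577, 699.9 and 834 CPM in WT-labelled libraries and 765, 795 and 519.6 CPM in the Mll5+/- ones. By CPM these were the highest members in every library, and for each of them the genotypes overlapped. Together they took 54.6% to 64.3% of all Rab counts (mean 59.8% ± 3.62, SD, n = 6). The summed level of all Rab genes was 3828, 3852 and 4875 CPM in WT-labelled libraries and 4159.9, 4562 and 3753 CPM in the Mll5+/- ones. Its mean was 4185 ± 598 CPM (SD, n = 3) and 4158 ± 405 CPM (SD, n = 3), respectively, so that the means differed by less than the spread within either genotype. In bulk counts, fewer cells of a type and less RNA per cell cannot be told apart.

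The rankings by CPM and the shares of Rab counts given here make no allowance for transcript length. To compare levels between genes, CPM was also taken per kilobase, using the length of the principal annotated transcript of each gene. On this scale, as means ± SD over all 6 libraries, Rab31 stood at 301 ± 49.5 CPM per kilobase, Rab1a at 263 ± 47.2 and Rab14 at 244 ± 48.0. The order among these was not fixed: Rab31 exceeded Rab1a in 4 of 6 libraries, and Rab1a exceeded Rab14 in 4 of 6. Rab27a followed at 79.6 ± 65.7, an average over libraries that differed widely, as described with the secretory members. Rab14 exceeded Rab27a in 6 of 6 libraries. Rab6a, a Golgi member, came next at 54.2 ± 8.06, and it exceeded Rab7 at 31.7 ± 7.55 in 6 of 6. From Rab7 down to Rab8b, over the ranks of Rab12, Rab2a, Rab4b and Rab29, each member exceeded the next in 2 to 4 of 6 libraries, so that neighbours in this stretch did not separate. Among the 5 untested members Rab15 was lowest, at 0.131 ± 0.275. In the deposited mm39 coordinates Rab31 spans chr17:65958724-66079747, Rab1a chr11:20151432-20176856, Rab14 chr2:35070217-35091132 and Rab27a chr9:72952136-73004911. The members described below as not overlapping between genotypes, Rab5c, Rab11b and Rab28, span chr11:100605835-100629041, chr17:33961458-33979504 and chr5:41782319-41865500.

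**Figure D1:**
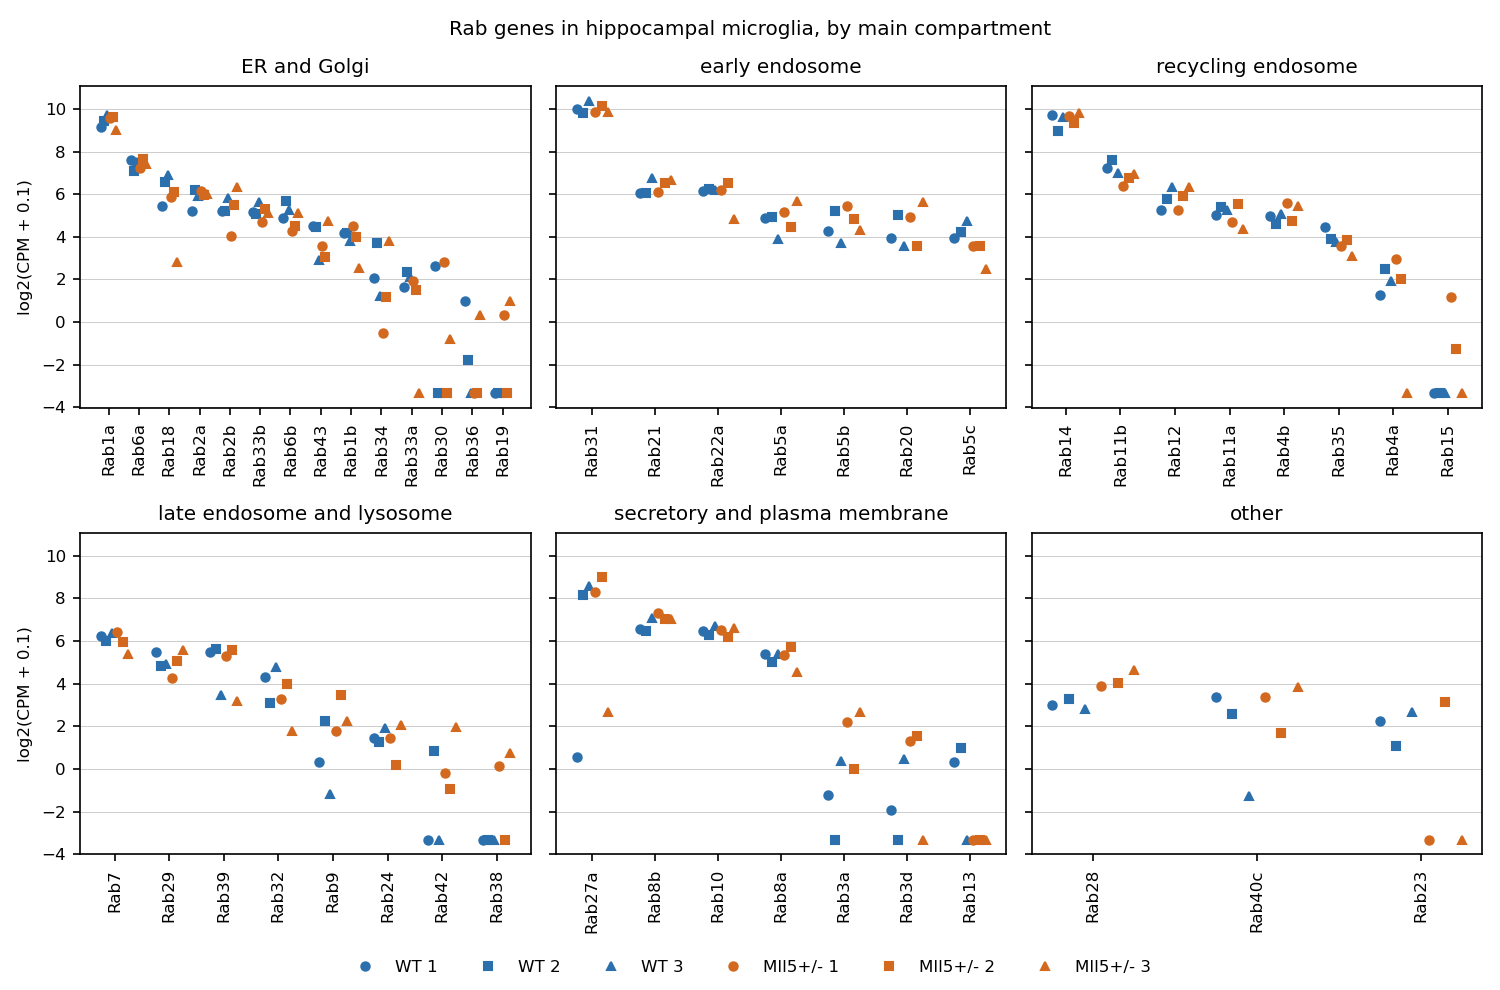
Level of each of the 47 Rab genes in each of the 6 libraries, as log2(CPM + 0.1) with 1 panel per compartment list; blue points are libraries labelled WT and orange points those labelled Mll5+/-, and the lowest position stands for 0 counts. Rab31, Rab14 and Rab1a lie above all others in every library, and Rab27a covers the widest range among the abundant members.

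The ER and Golgi list held 14 members in the table, 12 of them tested. After Rab1a, its second most abundant member was Rab6a, which directs transport within and back from the Golgi, with 196, 137 and 184 CPM in WT-labelled libraries and 151, 203 and 173 CPM in the Mll5+/- ones. The log2 difference was 0.03 (SE 0.231) with a 95% interval of -0.50 to 0.55, and for Rab1a it was -0.02 (SE 0.218) with an interval of -0.52 to 0.47. Rab1b, the near relative of Rab1a, had 18.0, 17.8 and 13.8 CPM (WT) and 22.7, 15.9 and 5.71 CPM (Mll5+/-). Rab6b, known as the brain-enriched relative of Rab6a, had 29.4, 51.2 and 38.8 CPM (WT) and 19.2, 22.4 and 35.2 CPM (Mll5+/-). Its log2 difference of -0.64 (SE 0.404) had the smallest edgeR p of the list, 0.149 before adjustment, and the groups overlapped. Rab2a, which acts at the Golgi and in the delivery of membrane to lysosomes, had 37.1, 73.2 and 60.4 CPM (WT) and 71.6, 62.4 and 64.1 CPM (Mll5+/-). Its relative Rab2b had 36.9, 36.6 and 57.0 CPM (WT) and 16.4, 44.7 and 81.8 CPM (Mll5+/-). Rab2b shares 400 bases with Tox4, a gene with a mean of 247 CPM, and reads of the shared bases could not be assigned. Rab33b, which binds the autophagy protein Atg16l1, had 35.4, 34.0 and 49.1 CPM (WT) and 25.6, 39.0 and 35.1 CPM (Mll5+/-). Rab33a had 3.05, 4.92 and 4.30 CPM (WT) and 3.67, 2.77 and 0 CPM (Mll5+/-). Rab18, known from lipid droplets and ER structure, had 43.3, 96.3 and 118 CPM (WT) and 58.98, 67.9 and 7.04 CPM (Mll5+/-), with its lowest value in the third library labelled Mll5+/-. Of the other tested members, Rab43, Rab34 and Rab30 had means of at most 16.5 CPM with overlapping genotypes. Rab19 and Rab36 were not tested: Rab19 had counts of 0 in every library but 2, and Rab36 in 3 of 6 libraries.

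All 7 early endosomal members were tested. Rab31 showed a log2 difference of -0.14 (SE 0.189) with a 95% interval of -0.57 to 0.29. Rab21, which moves integrins through endosomes, had 65.6, 65.5 and 107 CPM in WT-labelled libraries and 68.9, 91.9 and 101 CPM in the Mll5+/- ones. Rab22a, the near relative of Rab31, had 71.2, 75.2 and 72.2 CPM (WT) and 72.7, 91.0 and 28.8 CPM (Mll5+/-). The Rab5 proteins, which drive fusion of early endosomes and act on newly formed phagosomes, were present as all 3 paralogs. Rab5a had 29.7, 30.8 and 14.8 CPM (WT) and 36.1, 21.9 and 51.3 CPM (Mll5+/-). Rab5b had 19.3, 37.6 and 12.8 CPM (WT) and 43.7, 28.3 and 20.1 CPM (Mll5+/-). For both, the genotypes overlapped. Rab5c had 15.3, 18.7 and 26.6 CPM (WT) and 11.6, 11.6 and 5.53 CPM (Mll5+/-). All 3 values of Rab5c labelled Mll5+/- lay below all 3 labelled WT. The means were 20.2 ± 5.82 CPM (SD, n = 3) for WT and 9.59 ± 3.52 CPM (SD, n = 3) for Mll5+/-, a log2 difference of -1.07 (SE 0.540) with a 95% interval of -2.30 to 0.15. By edgeR its p was 0.0786 before adjustment, and Rab5c did not pass after it. Rab20, known from phagosome maturation in macrophages, ranged from 11.9 to 50.3 CPM with overlapping genotypes.

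Of 8 recycling members, 7 were tested. Rab14 was the most abundant, with a log2 difference of 0.15 (SE 0.229). Rab11b had the second highest CPM, though per kilobase it stood below Rab12 and Rab4b. Together with Rab11a it governs the slow return of receptors through the recycling endosome. Rab11b had 148, 196 and 126 CPM in WT-labelled libraries and 84.0, 109.6 and 122 CPM in the Mll5+/- ones. Each library labelled Mll5+/- lay below each labelled WT, although the gap between the nearest libraries, 122 and 126 CPM, was small. The means were 157 ± 35.8 CPM (SD, n = 3) for WT and 105 ± 19.6 CPM (SD, n = 3) for Mll5+/-. The log2 difference was -0.57 (SE 0.263) with a 95% interval of -1.17 to 0.02, and the edgeR p of 0.0583 before adjustment did not pass after it. Rab11a had 32.8, 42.0 and 37.9 CPM (WT) and 25.5, 46.5 and 20.9 CPM (Mll5+/-), with overlapping groups. The Rab4 proteins serve fast recycling from early endosomes. Rab4b had 31.0, 23.8 and 33.5 CPM (WT) and 47.2, 26.5 and 42.9 CPM (Mll5+/-). Rab4a had 2.30, 5.54 and 3.74 CPM (WT) and 7.77, 3.96 and 0 CPM (Mll5+/-). Rab12, which sends transferrin receptor from recycling endosomes to degradation, and Rab35, which acts in fast recycling and at phagocytic cups, ranged from 8.41 to 80.1 CPM, each with overlapping genotypes. Rab15 was not tested, since it had counts in only 2 libraries, both labelled Mll5+/-.

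The late endosome and lysosome list held 8 members, 7 of them tested. Rab7, which brings late endosomes and phagosomes to fusion with lysosomes, was the most abundant by CPM with 75.6, 63.5 and 83.1 CPM in WT-labelled libraries and 84.8, 62.2 and 41.4 CPM in the Mll5+/- ones. The log2 difference was -0.24 (SE 0.328) with a 95% interval of -0.98 to 0.51. Rab29, a partner of the kinase Lrrk2 at the Golgi and lysosomes, had 44.1, 28.6 and 30.7 CPM (WT) and 19.0, 33.8 and 47.9 CPM (Mll5+/-). Rab39, known from late endosomes of phagocytes, had 45.5, 48.998 and 10.8 CPM (WT) and 39.5, 48.1 and 9.07 CPM (Mll5+/-). Rab39 was below 11 CPM in the third library of either genotype and at least 39.5 CPM in the other 4. Rab32, which serves lysosome-related organelles, ranged from 3.35 to 27.4 CPM. Rab9, which returns mannose 6-phosphate receptors from late endosomes to the Golgi, Rab24, an atypical member linked to autophagy, and Rab42 stayed at or below 10.9 CPM in every library. Genotypes overlapped for each of these. Rab38, the near relative of Rab32, was not tested, since only 2 libraries labelled Mll5+/- had counts for it.

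Of 7 secretory and plasma membrane members, 6 were tested. Rab27a, which docks secretory lysosomes and exosome-bearing endosomes at the plasma membrane, had 1.38, 287 and 382 CPM in WT-labelled libraries and 319, 518 and 6.23 CPM in the Mll5+/- ones. The first library labelled WT and the third labelled Mll5+/- were low, and the other 4 lay between 287 and 518 CPM. The ratio of highest to lowest library was 277-fold within the genotype labelled WT and 83.2-fold within that labelled Mll5+/-. The genotypes overlapped, and the log2 difference was 0.33 (SE 2.10). Rab27a was the only 1 of 31 tested Rab genes with a mean of at least 10 CPM that spread more than 10-fold within a genotype. Over all tested genes, 612 of 6833 at that level (8.96%) did so. Rab8b and Rab8a, which serve exocytosis and cilium formation, showed no such spread. Rab8b had 95.5, 87.6 and 138 CPM (WT) and 162, 133 and 131 CPM (Mll5+/-). Rab8a had 42.4, 31.8 and 42.4 CPM (WT) and 40.9, 52.0 and 23.2 CPM (Mll5+/-). The log2 difference of Rab8b was 0.41 (SE 0.256). Rab10, which delivers vesicles to the plasma membrane, ranged from 73.3 to 103 CPM. Rab3a and Rab3d, members of the family of regulated secretion, were scarce. Rab3a had 0.334, 0 and 1.18 CPM (WT) and 4.49, 0.912 and 6.33 CPM (Mll5+/-). Rab3d had 0.167, 0 and 1.28 CPM (WT) and 2.37, 2.81 and 0 CPM (Mll5+/-). Their log2 differences, 2.94 (SE 1.92) for Rab3a and 1.82 (SE 2.39) for Rab3d, carried wide errors, and the genotypes overlapped. Rab13, known from tight junctions, was not tested, since only 2 libraries labelled WT had counts for it.

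The remaining list held Rab28, Rab40c and Rab23, which were assigned to none of these routes. Rab28, known from cilia and photoreceptors, had 7.90, 9.58 and 6.87 CPM in WT-labelled libraries and 14.6, 16.2 and 25.1 CPM in the Mll5+/- ones. All 3 libraries labelled Mll5+/- were above all 3 labelled WT. The means were 8.11 ± 1.37 CPM (SD, n = 3) for WT and 18.6 ± 5.63 CPM (SD, n = 3) for Mll5+/-. The log2 difference was 1.199 (SE 0.525) with a 95% interval of 0.01 to 2.39. By edgeR, the p of Rab28 was 0.0487 before adjustment, and Rab28 did not pass after it. With any 1 library left out, the unadjusted edgeR p was 0.0554 to 0.142. Rab40c, a Rab with a SOCS box that joins ubiquitin ligase complexes, had 10.4, 5.96 and 0.312 CPM (WT) and 10.4, 3.09 and 14.4 CPM (Mll5+/-). Rab23, a negative regulator of Hedgehog signalling, had 4.68, 2.04 and 6.28 CPM (WT) and 0, 8.84 and 0 CPM (Mll5+/-). Both overlapped between genotypes.

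**Figure D2:**
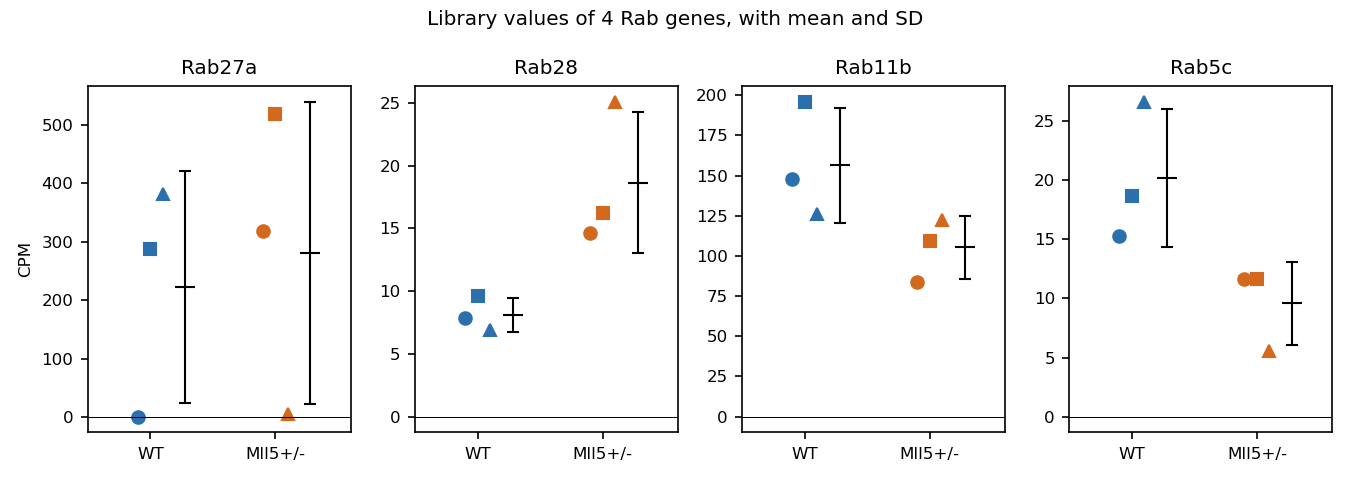
Level in CPM of the members whose libraries did not overlap between genotypes or spread most widely, 1 point per library (blue WT, orange Mll5+/-), with the genotype mean as a horizontal tick and the SD as vertical bars (n = 3). Rab5c and Rab11b were lower and Rab28 higher in all 3 libraries labelled Mll5+/-, and Rab27a was low in 1 library of either genotype.

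By share of all Rab counts, the early endosomal list came to 31.8% ± 1.39 (SD, n = 3) for WT and 30.2% ± 1.72 (SD, n = 3) for Mll5+/-. The ER and Golgi list came to 28.4% ± 2.20 (SD, n = 3) for WT and 27.1% ± 1.15 (SD, n = 3) for Mll5+/-. The recycling list came to 24.4% ± 4.25 (SD, n = 3) for WT and 25.4% ± 5.69 (SD, n = 3) for Mll5+/-. These lists each rest largely on a single gene, Rab31, Rab1a or Rab14. The late endosome and lysosome list was small, at 4.08% ± 0.863 (SD, n = 3) for WT and 3.58% ± 0.425 (SD, n = 3) for Mll5+/-. The secretory and plasma membrane list had shares of 5.9999, 12.7 and 13.7% for WT and 14.9, 17.1 and 7.05% for Mll5+/-. The low libraries were those with little Rab27a. Without Rab27a, a calculation added after its values were seen, this list held 5.97, 5.62 and 6.36% of the remaining Rab counts for WT and 7.84, 6.49 and 6.89% for Mll5+/-. These shares did not overlap between genotypes, with means of 5.98% ± 0.372 (SD, n = 3) and 7.07% ± 0.697 (SD, n = 3), a difference larger than either SD. In summed CPM the same list did overlap, with 228, 200 and 286 CPM for WT and 301, 262 and 258 CPM for Mll5+/-. The other members, Rab28 among them, held 0.444% ± 0.162 (SD, n = 3) for WT and 0.756% ± 0.255 (SD, n = 3) for Mll5+/-. This difference was also larger than either SD. The shares narrowly failed to overlap, at most 0.599% for WT and at least 0.601% for Mll5+/-. Shares per compartment were given no test, and with Rab27a included the difference of means was less than the larger SD for each list of the 5 routes. Counted per kilobase, the mean share over all libraries was higher for the ER and Golgi list (29.8%) than for the early endosomal one (27.5%).

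**Figure D3:**
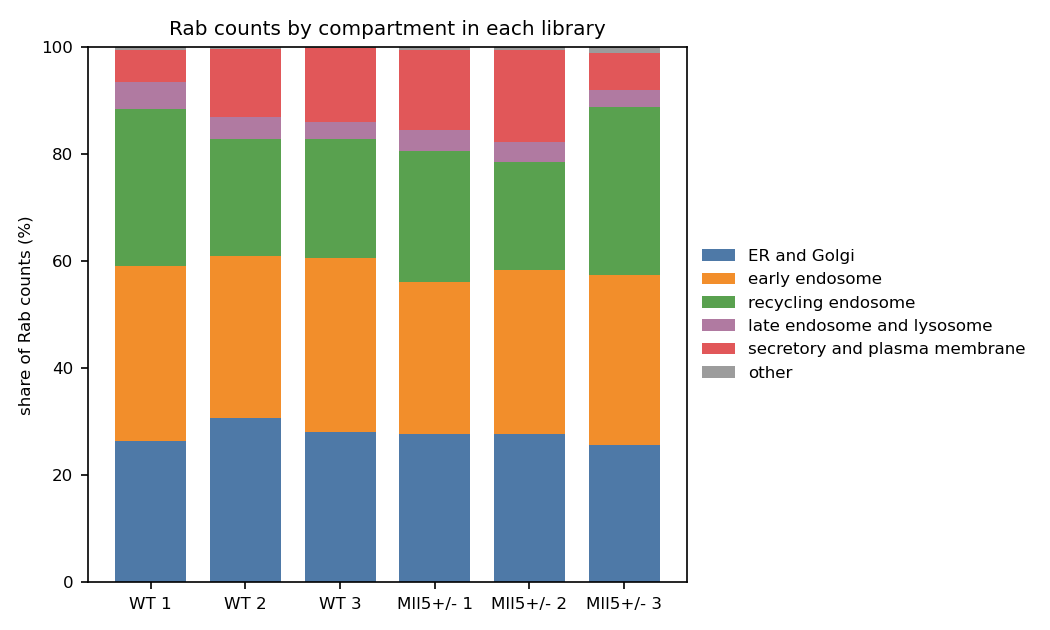
Share of all Rab counts, in percent, held by each compartment list, as stacked bars with 1 bar per library. The early endosomal, ER and Golgi and recycling lists each hold between 20.1% and 32.7% in every library, and the secretory share varies up to 17.1%.

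Paralog use was examined in 9 families as the log2 ratio of CPM per kilobase within a library, with 0.5 counts added to each gene. Of 12 pairs, the same member led in 6 of 6 libraries for 8. Each of these 8 pairs reached the smallest p that an exact two-sided sign-flip permutation test allows with 6 libraries (adjusted p = 0.0469 over the 12 pairs). The count depends on the lengths: with coding length or with no length, 7 pairs had a constant leader, and the smallest adjusted p of that exact test was 0.0536, so that none passed. Rab1a, Rab31, Rab4b, Rab33b, Rab6a and Rab8b led their relatives in 6 of 6 libraries under all 3 choices of length, Rab2a and Rab5a only with transcript length, and Rab11b only with the other choices. The largest ratios with counts in every library were Rab1a over Rab1b, a log2 ratio of 5.10 ± 0.57 (SD, n = 6) or 34.3-fold, and Rab31 over Rab22a, 5.04 ± 0.55 (SD, n = 6) or 32.9-fold. The windows upstream of these 4 genes are shown to set the abundant member of each pair beside the scarce one. Each is the 250 bases before the gene's annotated start in RefSeq on GRCm38.p6, written 5′ to 3′ on the gene's strand, with GC boxes (GGGCGG, or CCGCCC on the other strand) in capitals. The window of Rab1a lies at chr11:20201162-20201411 (plus strand), that of Rab1b at chr19:5106997-5107246 (minus), of Rab31 at chr17:65772753-65773002 (minus) and of Rab22a at chr2:173659595-173659844 (plus). These positions are on GRCm38.p6 and do not line up with the mm39 spans given above.
Rab1a: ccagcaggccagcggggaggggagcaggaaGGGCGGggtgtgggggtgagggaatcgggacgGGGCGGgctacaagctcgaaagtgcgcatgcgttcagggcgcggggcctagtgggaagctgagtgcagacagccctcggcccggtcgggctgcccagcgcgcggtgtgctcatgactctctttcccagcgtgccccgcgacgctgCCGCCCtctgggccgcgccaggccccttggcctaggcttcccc
Rab1b: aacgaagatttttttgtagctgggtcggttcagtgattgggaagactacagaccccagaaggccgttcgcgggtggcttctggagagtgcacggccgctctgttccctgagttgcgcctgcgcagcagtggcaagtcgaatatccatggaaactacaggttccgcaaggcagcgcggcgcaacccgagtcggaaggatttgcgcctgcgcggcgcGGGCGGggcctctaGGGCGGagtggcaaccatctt
Rab31: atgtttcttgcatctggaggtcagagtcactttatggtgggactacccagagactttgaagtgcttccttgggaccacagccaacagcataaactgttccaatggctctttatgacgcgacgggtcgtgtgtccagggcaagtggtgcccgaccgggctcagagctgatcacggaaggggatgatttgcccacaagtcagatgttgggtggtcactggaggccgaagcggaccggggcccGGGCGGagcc
Rab22a: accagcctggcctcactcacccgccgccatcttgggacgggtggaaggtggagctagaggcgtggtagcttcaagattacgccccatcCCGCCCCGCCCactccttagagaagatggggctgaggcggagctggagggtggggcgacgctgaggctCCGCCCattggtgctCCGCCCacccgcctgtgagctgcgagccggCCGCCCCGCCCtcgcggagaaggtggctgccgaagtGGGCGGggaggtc

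Rab1a held 3 GC boxes and Rab1b 2, while Rab31 held 1 and Rab22a 7, with overlapping matches counted separately. The abundant member thus had more boxes in the first pair and fewer in the second. The GC content was 72.4% for Rab1a, 60.8% for Rab1b, 57.6% for Rab31 and 70.0% for Rab22a. None of the 4 windows held GAGGAA, the core of sites for PU.1, or CACGTG, the E-box of the MiT/TFE factors, on either strand. Of the 53 windows that RefSeq gives for 41 of the Rab genes, 36 (67.9%) held a GC box. The share was 32.7% among all 32851 RefSeq windows of this length. That set was not matched to the Rab genes by level in these cells. GAGGAA was in 8 of the 53 (15.1%) against 23.3%, and CACGTG in 5 (9.43%) against 6.02%. A match describes letters only, and several windows belong to the same gene.

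In the Rab6 family Rab6a led Rab6b by a log2 ratio of 3.12 ± 0.64 (SD, n = 6), or 8.67-fold. Rab6a also overlaps Mrpl48 by 892 bases, a gene at a mean of 11.1 CPM. Rab8b led Rab8a by 1.64 ± 0.48, or 3.11-fold. Rab2a led Rab2b by 1.004 ± 0.89, or 2.01-fold, and without length correction by 0.56 and in 5 of 6 libraries. Rab4b took 83.7% to all of the family's CPM per kilobase across the 6 libraries, and Rab33b took 69.6% to all of its own. The upper ends come from the third library labelled Mll5+/-, in which Rab4a and Rab33a had 0 counts, so these pairs are given as shares. Rab5a exceeded Rab5b in 6 of 6 libraries by 0.63 ± 0.68, or 1.55-fold, per kilobase of transcript. With coding length or no length the ratio was 0.21, and Rab5a exceeded Rab5b in 3 of 6, so that these data set no order between them.

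Other pairs had no constant leader per kilobase of transcript. Rab11b led Rab11a in 5 of 6 libraries by 0.55 ± 0.47 (exact sign-flip permutation p = 0.0625, adjusted p = 0.0750), and in 6 of 6 by 1.94 without length correction. Rab3a led Rab3d in 4 of the 5 libraries with counts for either gene, and in 3 of these 5 without length correction. Rab5c took 9.34% to 57.5% of the Rab5 family, and Rab5b led it in 4 of 6 libraries. The log2 ratio of Rab5b to Rab5c was -0.39, 0.28 and -1.79 for WT and 1.18, 0.55 and 1.13 for Mll5+/-. These values did not overlap. The exact two-sided permutation p between genotypes was 0.1, the smallest that 3 against 3 libraries allow, and 0.800 after adjustment over the 12 pairs. This ratio shares the Rab5c counts given above. For the other 11 pairs the adjusted exact permutation p between genotypes was 0.800 to 0.900. The longest identical stretch between the transcripts of a pair was 13 to 38 bases, and the sources used here give neither the read length nor the handling of reads that match several genes.

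**Figure D4:**
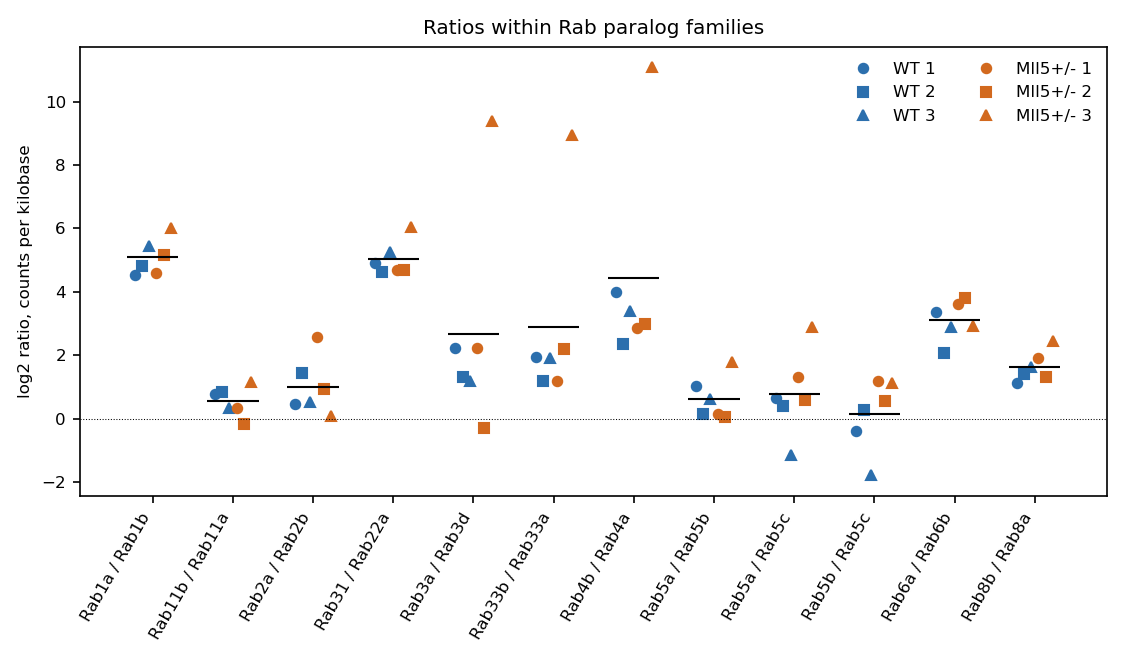
Log2 ratio of CPM per kilobase between the members of each paralog pair, 1 point per library, with libraries labelled WT and Mll5+/- in different colours short lines for the mean of 6 libraries and a dotted line at 0 for equal levels. The points above 8 are ratios to a member with 0 counts and depend on the 0.5 counts added to each value. Rab1a over Rab1b and Rab31 over Rab22a stay above 4 in every library, while the pairs with Rab5c, Rab11b over Rab11a and Rab3a over Rab3d cross 0.

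Across the family, the comparison of Mll5+/- with WT gave no call. None of 42 tested Rab genes passed an adjusted p of 0.05 by edgeR, where the background was 0% (0 of 10832 tested genes). Before adjustment, 1 Rab gene (2.38%), Rab28, had a p under 0.05, against 2.88% of all tested genes. DESeq2 called none of the Rab genes and 0.25% of all genes it tested, and limma-voom with sample weights called none of either. Unadjusted, DESeq2 had a p under 0.05 for 1 Rab gene, again Rab28, against a background of 4.87%, and limma-voom for 2, Rab8b and Rab11b, against 4.31%. Values of the genotypes did not overlap for 3 of 42 Rab genes (7.14%), against 9.32% of all tested genes. Rab28 was the 1 that was higher in the libraries labelled Mll5+/-, where the background was 4.68%, and Rab5c and Rab11b were the 2 that were lower, where it was 4.64%. The Rab shares were thus near those of all genes.

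Log2 differences of Rab genes ran from -1.07 (Rab5c) to 2.94 (Rab3a), with 20 above 0 and 22 below. The median was -0.01, and that of all tested genes was 0.02. The median SE was 0.521 for Rab genes and 0.627 for all tested genes. The median coefficient of variation within a genotype was 37.8% for Rab genes and 45.6% for all. The third library labelled Mll5+/- held the lowest value of 13 of 42 Rab genes (31.0%), Rab1a, Rab7 and Rab18 among them, while it was lowest for 21.9% of all tested genes. It also held the highest value of 12 of 42 Rab genes, and of 2445 of all 10832 tested genes. This library had the lowest total count, the highest share of mitochondrial counts (3.55%, against 1.88% to 2.90% in the others) and the highest summed level of 6 listed border macrophage markers (692 CPM, against 265 to 328 CPM in WT-labelled libraries and 368 to 417 CPM in the others labelled Mll5+/-). Their part in the Rab values was not tested.

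**Figure D5:**
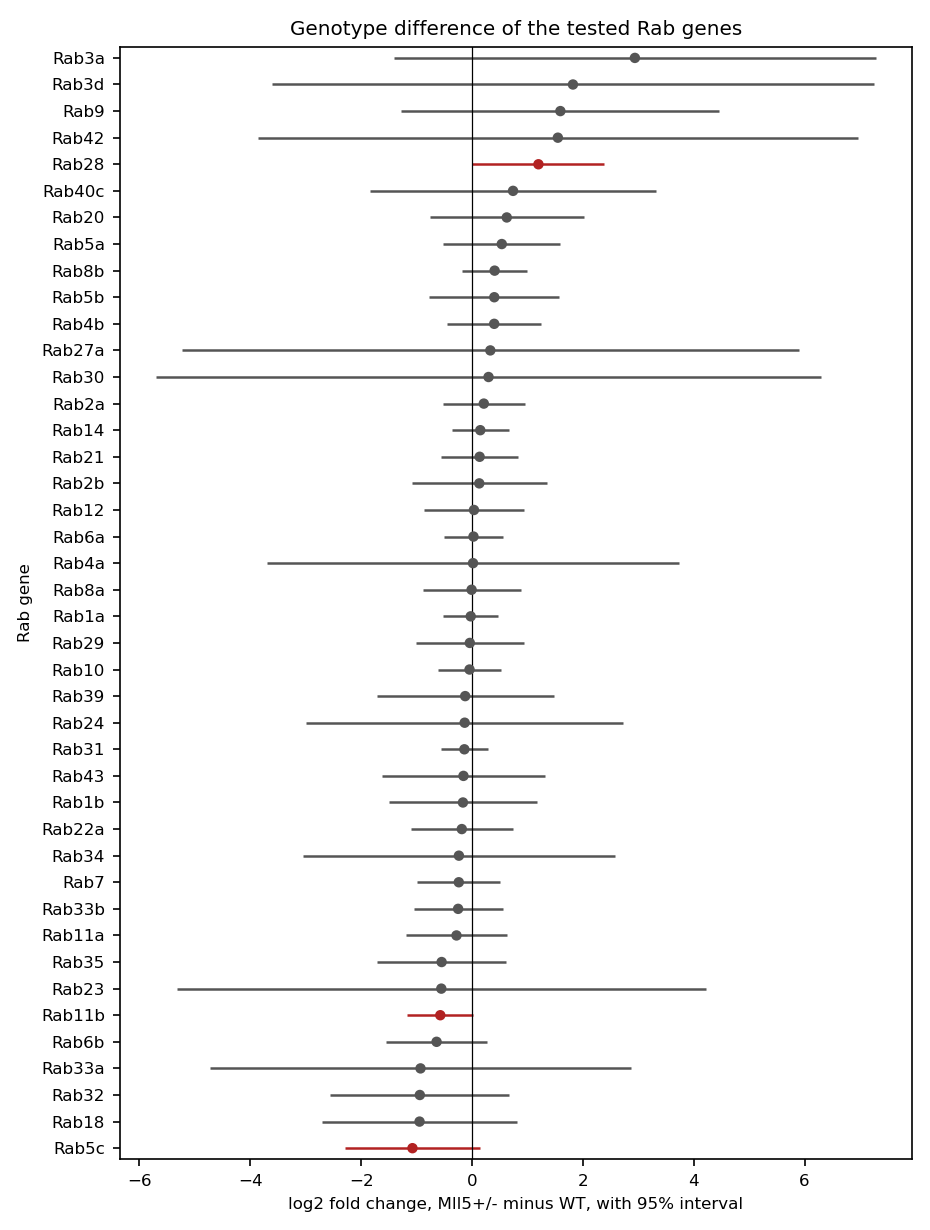
Log2 difference (Mll5+/- minus WT) as points with 95% intervals as lines for the 42 tested Rab genes, from the edgeR fit of all genes, in red where the genotypes did not overlap. Intervals are narrow for Rab31, Rab1a and Rab14 and wide for scarce members such as Rab3a, and the interval of Rab28 (0.01 to 2.39) lies just above 0.

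Summed levels of border macrophage and oligodendrocyte markers did not overlap between genotypes. The 6 of 8 listed border macrophage markers summed to 265 to 328 CPM in WT-labelled libraries and 368 to 692 CPM in the Mll5+/- ones. The 6 of 8 listed oligodendrocyte markers summed to 140 to 185 CPM and 98.1 to 135 CPM, respectively, the same direction as Rab5c and Rab11b, and the border macrophage markers had that of Rab28. Summed astrocyte, monocyte and neutrophil, endothelial and neuronal markers overlapped between genotypes. The part of other cell types in the values of Rab5c, Rab11b and Rab28 was not tested.

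The proteins that act on Rab GTPases were examined through 159 genes in 4 lists, of which 139 were in the table and 136 were tested. By edgeR none passed an adjusted p of 0.05, and 4 (2.94%, against 2.88% of all genes) had an unadjusted p under 0.05. Values did not overlap for 12 (8.82%, against 9.32% of all genes), 4 of them higher and 8 lower in the libraries labelled Mll5+/-, where all genes gave 4.68% and 4.64%. DESeq2 called 1, Mical1, and limma-voom with sample weights called none, where the shares of all genes were 0.25% and 0%. Unadjusted p-values under 0.05 numbered 4 by DESeq2 and 6 by limma-voom, against 4.87% and 4.31% of all genes. By list, values did not overlap for 4 of 50 GEFs (median log2 difference -0.01), 5 of 32 GAPs (0.04), 2 of 45 effectors (0.24, 29 above 0 and 15 below) and 1 of 9 genes of prenylation and cycling (-0.03). Of all tested genes, 5602 were above 0 and 5207 below. The third library labelled Mll5+/- held the highest value of 19 of 45 effectors, and of 2445 of all 10832 tested genes. Its part in the effector differences was not tested.

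Among the GAPs, Tbc1d4, which switches off Rab10 and its relatives and is best known from glucose transporter traffic, had 121, 89.997 and 59.6 CPM in WT-labelled libraries and 51.1, 26.8 and 23.1 CPM in the Mll5+/- ones. The groups did not overlap, and the log2 difference was -1.42 (SE 0.414) with an edgeR p of 0.00765 before adjustment. Its target Rab10 had a log2 difference of -0.04 (SE 0.254). Among the GEFs, Rab3gap2, a subunit of the complex that activates Rab18 and inactivates Rab3, had 33.9, 60.04 and 32.4 CPM in WT-labelled libraries and 22.2, 19.1 and 25.2 CPM in the Mll5+/- ones. The groups did not overlap, and the log2 difference was -0.93 (SE 0.394) with an edgeR p of 0.0434 before adjustment. Without the second library labelled WT, the difference of Rab3gap2 was -0.60 with an edgeR p of 0.218. Rabgef1, which activates Rab5 proteins, had 97.9, 2.9999 and 6.35 CPM in WT-labelled libraries and 6.11, 5.02 and 3.21 CPM in the Mll5+/- ones. Its log2 difference of -2.90 (SE 1.24), with an edgeR p of 0.0491 before adjustment, rested on the first library labelled WT, and without that library the difference was 0.02. Among the effectors, Mical1, an actin-oxidizing enzyme that binds Rab proteins, had 6.06, 2.54 and 1.70 CPM in WT-labelled libraries and 0, 0 and 0 CPM in the Mll5+/- ones. Mical1 was thus at 0 in all 3 libraries labelled Mll5+/-, and its edgeR p was 0.00667 before adjustment, while its adjusted p by DESeq2 was 0.0284. In the list of prenylation and cycling, no p fell under 0.05, and the smallest were those of the 2 escort proteins. Chml had 45.0, 39.8 and 29.8 CPM (WT) and 1.14, 29.1 and 0.425 CPM (Mll5+/-). Chm had 34.5, 33.4 and 27.1 CPM (WT) and 32.1, 25.6 and 12.3 CPM (Mll5+/-). The log2 differences were -1.90 (SE 1.41) for Chml and -0.44 (SE 0.447) for Chm, with edgeR p values of 0.220 and 0.351 before adjustment.

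The counts do not separate strands as far as the sources used here state, and 5 members overlap another gene in the deposited coordinates. Beside Rab2b with Tox4 and Rab6a with Mrpl48, these are Rab24 with Prelid1, Rab15 with Fntb and Rab3a with Mpv17l2. Of 60 mouse Rab symbols listed by compartment, 13 were not in the table and have no value here, Rab27b, Rab7b, Rab3b, Rab3c and Rab37 among them.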

How the data were processed

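The authors deposited 1 table of counts, whole numbers per gene symbol in 6 libraries, with mm39 coordinates. STAR, StringTie, DESeq2 and FastQC are named, with build mm39, per the submitters' processing notes. Versions, order, strand setting and the way counts were made were not given in the sources used here. Libraries were grouped by labelled genotype.

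The filter filterByExpr was applied (minimum count 10, minimum total count 15), which removed 1049 of 11881. Counts were scaled by TMM and tested across all 10832 genes by the quasi-likelihood test of edgeR, with robust dispersions, Mll5+/- minus WT, p-values adjusted by Benjamini-Hochberg and called under 0.05 (edgeR 4.0.16, limma 3.58.1, DESeq2 1.42.0, R 4.3.3). On simulated counts, recovery of the sign and size of known differences was required only at a dispersion far below that of these data. That check does not show which differences the test could detect at the spread of these libraries. SEs and 95% intervals were derived from each coefficient's F statistic. All p-values are two-sided. Those of the genotype fits set a difference against the spread between these libraries, with information on variance shared across genes. The sign-flip test of paralog ratios takes the libraries of both genotypes together. DESeq2, limma-voom with sample weights, other size factors, total counts, no filter and leaving out each library were the alternatives.

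Levels per kilobase used the principal transcript length of a GRCm38 annotation, matched by symbol and not by position. Upstream windows are from RefSeq (GRCm38.p6), and their coordinates cannot be compared with the mm39 spans.

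Every Rab gene was accounted for. Values per library were given for the 2 most abundant members of each list, members with an unadjusted p under 0.05, without overlap or with over 10-fold spread at a mean of at least 10 CPM, and paralogs in families with at least 2 tested members. Those of Rab18, Rab39 and Rab23, which met none of these criteria, were given in addition. Regulators with an unadjusted p under 0.05, or otherwise the 2 of smallest p in a list, were named. The members, lists and compartments were chosen with earlier results of these data known.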

Additional observations from a re-analysis of the deposited data

How the results depend on the processing

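The number of Rab genes called was 0 under all 11 alternatives. Over all genes DESeq2 called 29, and leaving out 1 library called 0 to 2 (2 without the first or second library labelled WT or the third labelled Mll5+/-, and 1 without the second labelled Mll5+/-). DESeq2 called 1 regulator. Of 16 single genes, 9 kept the sign of their difference under every alternative, and none reached an adjusted p under 0.05. Mical1, the regulator that DESeq2 called, was not among these 16 and has no log2 difference here. The small difference of Rab1a changed sign with limma-voom (0.094) and with total counts (0.0054). Leaving out 1 library gave log2 differences of -0.16 to 0.14 for Rab1a, -0.066 to 0.28 for Rab14, -0.46 to 0.96 for Rab27a, -0.39 to 0.23 for Rab29, -0.27 to 0.034 for Rab31, -0.13 to 0.12 for Rab6a and -3.46 to 0.018 for Rabgef1. With coding length or no length, no paralog pair passed the adjusted test, for which fewer pairs with a constant leader raise the adjusted p. The log2 ratios were then 5.55 or 5.57 for Rab1a over Rab1b, 3.99 or 3.997 for Rab31 over Rab22a, 4.54 or 4.49 for Rab33b over Rab33a, 4.23 or 4.19 for Rab4b over Rab4a, 0.58 or 0.56 for Rab2a over Rab2b, and 1.93 or 1.94 for Rab11b over Rab11a. They were 2.48 for Rab6a over Rab6b, 1.69 for Rab8b over Rab8a and 0.21 for Rab5a over Rab5b under both. Counted per kilobase, mean shares were 29.8% for ER and Golgi, 27.5% for early endosomes, 6.22% for late endosomes and lysosomes and 0.894% for the other members. Without Rab27a the mean secretory share was 6.53%, an alternative chosen after seeing the data. These shares differ from those above because the same counts were divided by transcript length or the Rab27a counts were left out. No paired analysis was made, because the labels give each library its own number and name no litter or other pairing. A count of 0 limits a level to 0.104 to 0.142 CPM at these depths.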
